A study of Mus musculus with 6 samples.

Results

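Genes of WAP-domain and Kazal protease inhibitors were followed in mouse prostate in experimental autoimmune prostatitis, in which autoimmunity inflames the gland. They were all gene symbols of the count table that begin with Wfdc or Spink, together with Slpi, Spint1 and Spint2, 32 of 18697 genes. All 32 had at least 1 count, and 21 had at least 10 counts in 3 or more libraries and are described here. The mice of both groups had the same disease model. One group was given VUF11207, an agonist of the atypical chemokine receptor CXCR7, intraperitoneally at 5 mg per kg and day for 14 days, and the other the vehicle DMSO for the same time. Each group held 3 bulk RNA-seq libraries of prostate tissue, with 20308018 to 33368058 counts each. The vehicle libraries are replicates 2 and 3 and an unnumbered library, a vehicle column that could not be tied to a replicate number. Values run in the order unnumbered, 2 and 3 for vehicle and 1, 2 and 3 for VUF11207 unless stated otherwise. For strain, age and the number of mice behind a library, nothing was given in the sources used here. The p-values therefore describe only how far these libraries scatter, which may be technical.

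Proteases set free in seminal plasma and in inflamed tissue are held in check by small secreted inhibitors. The WAP domain and the Kazal domain are short, cysteine-rich folds that block serine proteases by offering the enzyme a loop in place of a substrate. Male accessory glands secrete several of them, where they bear on coagulation and liquefaction of semen, on sperm and on defence against microbes. Spint1 and Spint2 carry Kunitz domains, another inhibitor fold, and act at the surface of epithelial cells.

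Upstream sequence is shown for Wfdc15b and Wfdc18, the genes in which a searched motif was found. Each stretch holds the 250 bases before the RefSeq start on GRCm38.p6, written 5′ to 3′. The Wfdc15b stretch is chr2:164221664-164221913 on the minus strand and the Wfdc18 stretch chr11:83708754-83709003 on the plus strand. Capitals mark the match, to the androgen receptor half-site AGAACA (read on the other strand) in Wfdc15b and to the TATA box TATAAA in Wfdc18.
Wfdc15b: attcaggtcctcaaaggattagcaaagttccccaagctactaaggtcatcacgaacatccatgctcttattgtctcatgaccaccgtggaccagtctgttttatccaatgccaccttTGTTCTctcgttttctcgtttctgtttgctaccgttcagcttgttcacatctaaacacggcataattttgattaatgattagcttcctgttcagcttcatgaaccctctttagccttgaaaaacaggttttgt
Wfdc18: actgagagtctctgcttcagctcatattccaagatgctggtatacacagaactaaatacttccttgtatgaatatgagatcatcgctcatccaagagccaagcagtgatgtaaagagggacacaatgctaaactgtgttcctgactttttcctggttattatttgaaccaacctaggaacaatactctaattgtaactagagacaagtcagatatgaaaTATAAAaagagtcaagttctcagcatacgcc
Windows were found for 13 of the 21 genes, which include neither Wfdc1 nor any gene with a symbol beginning with Spink, so Spink1 and Spinkl were not searched. Searched on both strands, the half-site was in Wfdc15b alone among these 13 and in 16.08% of all 32851 RefSeq windows of this length. TATAAA was in Wfdc18 alone and in 12.37% of all windows. The forkhead motif TGTTTAC was in none of the 13 and in 3.17% of all windows.

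The genes lie in a few clusters in the GENCODE M21 annotation of mm10, in which each of the 32 symbols was found once. The WFDC locus on chromosome 2, from 164176327 to 164745931, holds 15 of them (9 among the 21 described) and also 6 Svs genes for seminal vesicle proteins, which sit between Wfdc15b and Slpi. A stretch of 468.1 kb on chromosome 18, from 43728082 to 44196177, holds 6, namely Spink1, Spink5, Spink14, Spink12, Spinkl and Spink11. Wfdc17, Wfdc18 and Wfdc21 neighbour each other on chromosome 11.

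The inhibitor genes took between 0.331% of all counts (the unnumbered vehicle library) and 4.98% (VUF11207 replicate 3). Spink1, a secreted trypsin inhibitor of pancreas and male accessory glands, made up most of that in 4 of the 6 libraries. Its share of all counts was 0.165%, 0.716% and 1.03% with vehicle. With VUF11207 it was 1.44%, 3.26% and 4.45%, where the Wilson 95% interval of the last ran from 4.45% to 4.46%. Such intervals cover counting error only. Spinkl, a Kazal-like protein of seminal vesicle secretion, held 58.9% of the inhibitor counts in vehicle replicate 2 and 0.0279% in VUF11207 replicate 2.

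**Figure D1:**
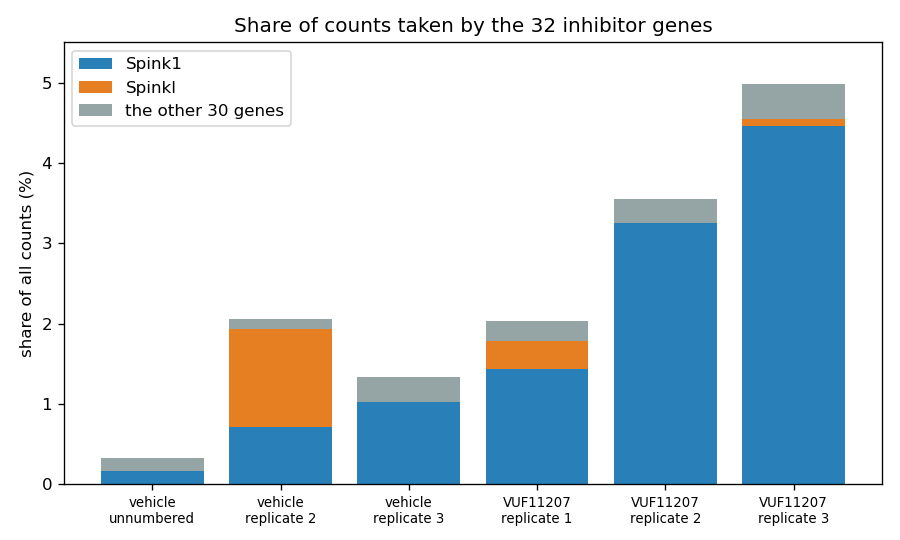
Share of all counts (%) per library taken by Spink1 (blue), Spinkl (orange) and the other inhibitor genes (grey), stacked. The total is smallest for the unnumbered vehicle library, 0.331%, and largest for VUF11207 replicate 3, 4.98%, and the Spinkl part is largest in vehicle replicate 2.

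Levels are given as CPM, counts relative to a library size scaled by TMM, a factor that offsets a few very abundant genes. That factor was 0.425 in vehicle replicate 2 and 1.01 to 1.33 in the other 5 libraries, so CPM there are raised relative to the raw share of counts. In vehicle replicate 2 genes of the seminal vesicle list summed to 1536760 CPM, against 5600 to 281251 elsewhere. All 10 of these genes had negative fold changes with VUF11207, while 44.7% of all genes had positive ones. None of the 10 had an unadjusted edgeR p under 0.05. How far these signs rest on vehicle replicate 2 was not tested. Skeletal muscle genes summed to 5666 CPM in one vehicle library, replicate 3, to 5993 in one treated library, replicate 1, and to 420 to 1183 in the other 4. Of 11 prostate secretory genes all were above 10 CPM in some library, as were 7 of 7 luminal epithelial genes. Since the tissue is bulk, fewer cells of a type and less RNA per cell cannot be told apart in any value below.

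Per kilobase of exon, Spink1 had the highest mean over the 6 libraries, at 24224 CPM per kb, followed by Spinkl at 9158. Spinkl ran from 13.3 to 47808 CPM per kb. In the unnumbered vehicle library, vehicle replicate 3 and VUF11207 replicate 2 it was below Spint2, which ran from 163 to 228. Spink5, Spink8 and Spint2 came next with means of 215, 207 and 197 CPM per kb. These neighbours in the order overlap, since Spink5 ran from 9.67 to 384 CPM per kb and Spink8 from 57.0 to 461. Wfdc15b averaged 170, Wfdc3 68.4, Spint1 41.3, Spink11 19.1 and Wfdc1 10.8 CPM per kb, and the remaining 11 of the 21 genes were below 10.

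Most of these genes varied widely between libraries, within both groups. The highest level of a gene was a median of 19.5 times its lowest over the 21 genes, counting a library with fewer than 3 counts as 3. Over all 13753 genes tested the median was 2.24. For 13 of the 21 genes the ratio was above 10, against 9.55% of all genes. Spint2 and Spint1 stood at the other end, at 1.4 and 1.91 times. For 9 of the 21 genes the unnumbered vehicle library was the lowest, as it was for 28.2% of all genes tested.

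**Figure D2:**
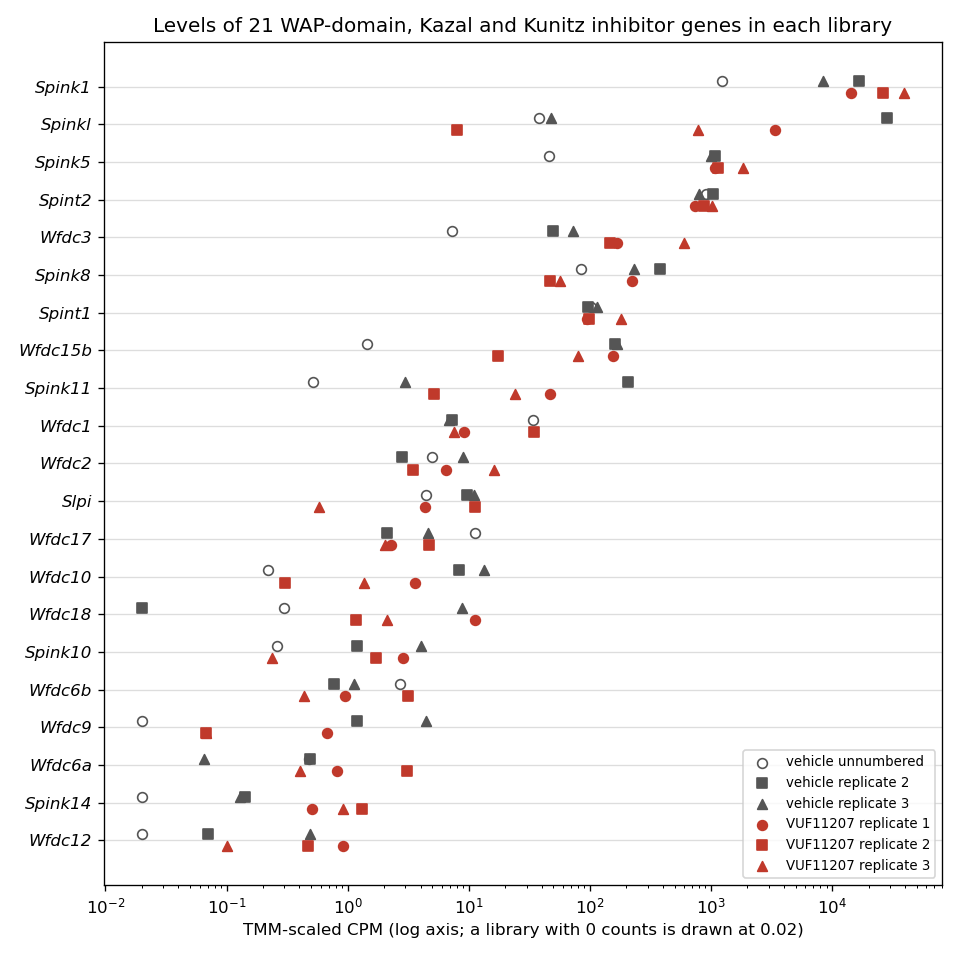
TMM-scaled CPM (log axis) of the 21 inhibitor genes in each library, vehicle in grey (open circle, the unnumbered library) above and VUF11207 in red below, ordered by mean level. A library with 0 counts is drawn at 0.02. Spint1 and Spint2 lie within a narrow range, while Spinkl spans 7.95 to 28493 CPM and the unnumbered vehicle library is lowest for 9 genes.

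Whether CXCR7 activation altered these genes was asked by comparing VUF11207 with vehicle in edgeR's quasi-likelihood test over all 13753 genes that passed its low count filter, calling genes at a Benjamini-Hochberg adjusted p under 0.05. None of the 21 genes passed, and 0% of all genes did. At an unadjusted p under 0.05 there were 2 of 21, Spink14 and Wfdc3, against 1.43% of all genes. DESeq2 gave a p for 13636 genes and for all of the 21 but Spinkl. It called none of them and 0.0293% of all genes, and at an unadjusted p under 0.05 it had Wfdc3, Spink14 and Spink1, against 2.27% of all genes. Spink14 reached 10 counts in treated libraries only and so entered these counts because it was high there. Without it the unadjusted edgeR count is 1, Wfdc3, and nothing is read from the comparison with all genes. The log2 fold change (VUF11207 minus vehicle) was positive for 10 of the 21 genes and for 44.7% of all genes, and its median was -0.03 against -0.04 over all genes. The median standard error was 1.07 for the 21 genes and 0.36 over all genes, so a change of the same size was harder to detect here than for most genes.

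The groups did not overlap for 3 of the 21 genes, Wfdc3, Spink14 and Spink5, all higher with VUF11207, against 3.05% of all genes in that direction and 5.57% in either. Spink14 was favoured here by the same filter, and without it 2 genes remain. None lay wholly below vehicle, against 2.52% of all genes. The separation of Spink5 depended on the scaling. With DESeq2-style size factors Spink5 overlapped, and on the scale of library totals it overlapped while Spink1 did not. Wfdc3 was separate under all 4 scalings tried.

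**Figure D3:**
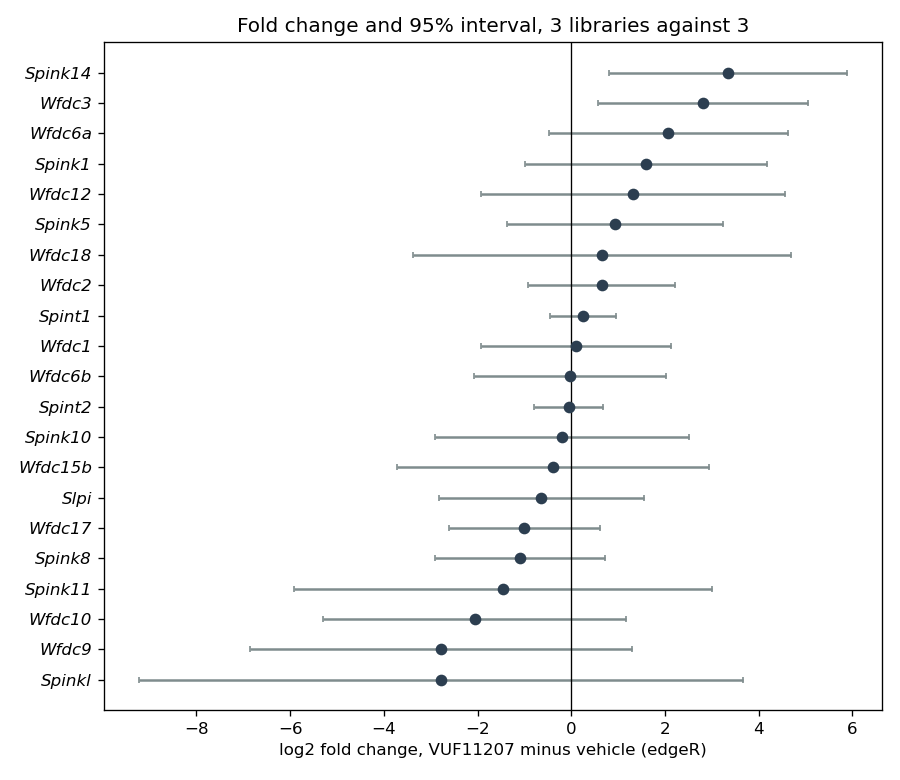
Log2 fold change (VUF11207 minus vehicle, edgeR) of the 21 inhibitor genes, points, with 95% intervals, bars. Intervals of Spink14 and Wfdc3 lie above 0 before adjustment, all others cross 0, and the interval of Spinkl reaches from -9.22 to 3.67.

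Wfdc3, a secreted protein with several WAP domains, had the clearest difference between the groups among the well-expressed genes. It was at 7.22, 49.9 and 72.3 CPM with vehicle and at 169, 146 and 594 CPM with VUF11207. Every treated library lay above every vehicle library, and VUF11207 replicate 3 was well above the other treated ones. Treated libraries averaged 303 CPM ± 253 and vehicle libraries 43.2 CPM ± 33.1 (SD, n = 3 each). The edgeR log2 fold change was 2.81 ± 0.94 (SE), with an unadjusted p of 0.0214 and an adjusted p of 0.9999, and the DESeq2 adjusted p was 0.502. Leaving out VUF11207 replicate 3, the highest library, gave 1.87. On library totals Wfdc3 was the 1 inhibitor gene called, at 3.10 with an edgeR adjusted p of 0.0323. Genes of the prostate secretory list moved with it. Their summed level was 39475, 53061 and 70405 CPM with vehicle and 69782, 83783 and 156050 CPM with VUF11207. Of the 11 genes, 8 had positive fold changes, against 44.7% of all genes. An unadjusted edgeR p under 0.05 was found for 5 of these 8, against 1.43% of all genes. The list was chosen with earlier results of these data known, so these counts are a description. Of the list, edgeR called 0 genes and DESeq2 1. Their part in the difference of Wfdc3 was not tested.

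For Spink1 the levels were 1242, 16822 and 8345 CPM with vehicle and 14277, 26141 and 39129 CPM with VUF11207. Vehicle replicate 2 was above VUF11207 replicate 1, so the groups overlapped. Spink1 had a log2 fold change of 1.59 ± 1.09 (SE), an edgeR adjusted p of 0.9999 and a 95% interval from -0.996 to 4.18. Without the unnumbered vehicle library it was 1.08, and without vehicle replicate 2 it was 2.49.

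Spink5, a large inhibitor of many Kazal-type domains known for restraining kallikreins in skin, was at 46.3, 1072 and 1003 CPM with vehicle and 1078, 1136 and 1836 CPM with VUF11207. The gap between the groups was thus 1072 against 1078, and 5 of the 6 libraries lay within 1003 to 1836 CPM. Its log2 fold change of 0.93 ± 0.97 (SE) dropped to 0.38 without the unnumbered vehicle library. Basal and squamous epithelial markers summed to 42.6, 69.8 and 89.6 CPM with vehicle and 96.6, 41.0 and 100.1 CPM with VUF11207, so VUF11207 replicate 2 had Spink5 at the common level and these markers low.

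Spink14, another Kazal gene of the chromosome 18 cluster, had 0, 2 and 4 counts with vehicle and 15, 39 and 27 counts with VUF11207. It had at least 10 counts in the treated libraries alone, so it could be among the genes described and tested because it was higher there, and its difference is a description. Its log2 fold change was 3.34 ± 1.07 (SE) at 0.0901 and 0.910 mean CPM, and Spink14 was chosen for this account after its values were seen.

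Spinkl showed the widest range of all, at 38.1, 28493 and 47.9 CPM with vehicle and 3377, 7.95 and 785 CPM with VUF11207. The highest and the lowest library belonged to different groups, and each group held both high and low libraries. The fitted log2 change of Spinkl was -2.78 ± 2.69 (SE) and turned to 5.05 without vehicle replicate 2. Spinkl was highest in the 2 libraries with most seminal vesicle transcripts. The summed seminal vesicle list was 5600, 1536760 and 132760 CPM with vehicle and 281251, 25177 and 31274 CPM with VUF11207. Spinkl did not follow that sum in vehicle replicate 3, which had a high sum with Svs2 at 80929 CPM but Spinkl at 47.9 CPM. Svs1, chosen after its values were seen, was at 452, 115364 and 199 CPM with vehicle and 18968, 51.7 and 1128 CPM with VUF11207, the same order of libraries as Spinkl except that the unnumbered library and vehicle replicate 3 changed places.

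Spink11, the neighbour of Spinkl on chromosome 18, was at 0.518, 205 and 2.97 CPM with vehicle and 46.5, 5.13 and 24.2 CPM with VUF11207. It too was highest in vehicle replicate 2 and next highest in VUF11207 replicate 1. Its log2 fold change of -1.46 ± 1.86 (SE) turned to 3.87 without vehicle replicate 2. Of the 50-base words in Spinkl transcripts, 1.18% also occurred in Spink11, and how reads that match both were counted is not given in the sources used here. Spink11 counts were 0.720% and 1.38% of Spinkl counts in vehicle replicate 2 and VUF11207 replicate 1, where Spinkl was highest. They were 1.36% in the unnumbered vehicle library, where Spinkl had 1029 counts. The value was 6.20% in vehicle replicate 3 and 3.08% in VUF11207 replicate 3. In VUF11207 replicate 2 it was 64.6%, where Spinkl had 237 counts and Spink11 153. The part of shared reads in the level of Spink11 was not tested.

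Spink8, a Kazal gene alone on chromosome 9, was at 84.0, 379 and 231 CPM with vehicle and 221, 46.8 and 57.0 CPM with VUF11207. Vehicle replicates 2 and 3 and VUF11207 replicate 1 were the high libraries. Spink8 had a log2 fold change of -1.09 ± 0.76 (SE). It was -2.14 when VUF11207 replicate 1 was left out and -0.52 when vehicle replicate 2 was.

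Wfdc15b, a small WAP protein with antibacterial activity, was at 1.44, 160 and 168 CPM with vehicle and at 154, 17.5 and 80.2 CPM with VUF11207. The same 3 libraries as for Spink8 were high, 1 treated and 2 vehicle. Wfdc15b had a log2 fold change of -0.39 ± 1.39 (SE), which was 0.09 without VUF11207 replicate 2 and 0.06 without vehicle replicate 3. Wfdc10, a WFDC locus gene chosen after its values were seen, was at 0.222, 8.38 and 13.3 CPM with vehicle and 3.58, 0.302 and 1.35 CPM with VUF11207. Its neighbour Wfdc9, also chosen after its values were seen, had 0, 17 and 136 counts with vehicle and 20, 2 and 2 with VUF11207. Wfdc10 and Wfdc9 had log2 fold changes of -2.06 ± 1.35 and -2.77 ± 1.71 (SE), and both were highest in vehicle replicate 3. Without that library they were at -1.29 and -1.07, and without VUF11207 replicate 1 at -3.12 and -4.69.

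The epididymis marker list had its highest sums in these same libraries, at 9.84, 748 and 850 CPM with vehicle and 991, 61.9 and 190.0 CPM with VUF11207. Of its 15 genes found, 2 exceeded 10 CPM in any library, Crisp1 and Defb42. Crisp1, a secreted protein of the epididymis, was at 3.70, 634 and 645 CPM with vehicle and 756, 8.22 and 163 CPM with VUF11207. Lcn8 and Cst8, defining genes of the caput epididymidis, had 0 counts in every library, and Lcn5 was at 3.17 CPM or less. The part of such RNA in the levels of Wfdc15b, Wfdc10 and Wfdc9 was not tested.

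Wfdc1, a secreted WAP protein of prostate stroma, was at 33.8, 7.26 and 6.85 CPM with vehicle and 9.06, 34.9 and 7.54 CPM with VUF11207. One library of each group stood at about the same high level, and the others lay between 6.85 and 9.06 CPM. The log2 fold change was 0.10 ± 0.84 (SE), with -0.95 without VUF11207 replicate 2 and 1.28 without the unnumbered vehicle library. Smooth muscle genes summed to 16959, 5579 and 5315 CPM with vehicle and 10523, 21624 and 4643 CPM with VUF11207, highest in the same 2 libraries, and all 10 of that list exceeded 10 CPM in some library. The part of smooth muscle content in the level of Wfdc1 was not tested.

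Wfdc17, a WAP protein of activated macrophages chosen after its values were seen, was at 11.4, 2.11 and 4.59 CPM with vehicle and 2.30, 4.73 and 2.03 CPM with VUF11207. Macrophage markers summed to 416, 145 and 232 CPM with vehicle and 129, 274 and 122 CPM with VUF11207. The 3 highest libraries came in the same order for both, led by the unnumbered vehicle library. All 11 macrophage genes were tested, with none above and 11 below 0 in fold change, while 44.7% of all genes were above 0. None of the 11 had an unadjusted edgeR p under 0.05, and the summed levels of the groups overlapped. Wfdc17 had a log2 fold change of -0.999 ± 0.68 (SE), which was -0.16 without the unnumbered vehicle library. The part of macrophage content in that value was not tested.

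Slpi, the secretory leukocyte protease inhibitor of mucosal fluids, which blocks neutrophil elastase and cathepsin G, was at 4.40, 9.65 and 11.0 CPM with vehicle and 4.33, 11.2 and 0.575 CPM with VUF11207. The groups overlapped across their whole range apart from VUF11207 replicate 3, which had 17 counts. Slpi had a log2 fold change of -0.64 ± 0.91 (SE), which moved to -0.10 when the latter was left out. The neutrophil list summed to 16.9, 20.2 and 53.5 CPM with vehicle and 52.8, 7.08 and 11.9 CPM with VUF11207, with Ly6g at 0 counts in every library. Most of the sum in the 2 highest libraries was Ltf, lactoferrin, which glandular epithelia also secrete, at 49.2 CPM in vehicle replicate 3 and 51.5 CPM in VUF11207 replicate 1. S100a8, a calcium-binding protein abundant in neutrophils that was chosen after its values were seen, was at 4.0, 3.10 and 1.13 CPM with vehicle and 0.372, 0.436 and 0.203 CPM with VUF11207, without overlap. Its partner S100a9 and Retnlg, chosen in the same way, also lay wholly below vehicle, as did 2.52% of all genes tested. Retnlg had 8, 8 and 4 counts with vehicle and 0 in each treated library, and was not tested. The other genes of the list that had counts overlapped between the groups, Ltf with a log2 fold change of 0.12. The unadjusted edgeR p of S100a8 was 0.00358 and its adjusted p 0.9999. VUF11207 replicate 3 was lowest for Slpi, S100a8 and S100a9, while VUF11207 replicate 2 had the highest Slpi with S100a8 at 0.436 CPM. The part of neutrophil content in the level of Slpi was not tested.

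Wfdc2, a WAP protein first described in epididymis and present in many epithelia, was at 4.96, 2.82 and 8.95 CPM with vehicle and 6.53, 3.49 and 16.3 CPM with VUF11207. The groups overlapped. Its log2 fold change of 0.65 ± 0.66 (SE) turned to -0.16 without VUF11207 replicate 3.

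**Figure D4:**
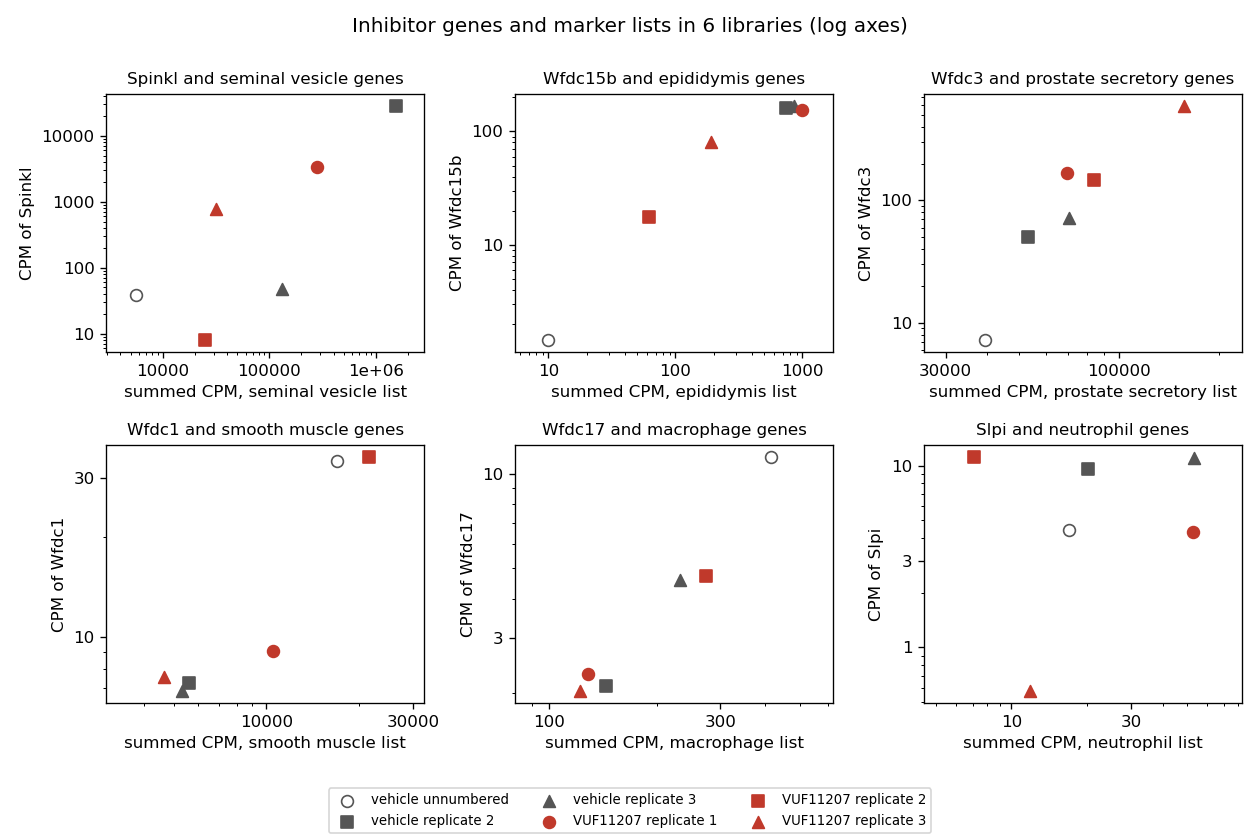
Level of 6 inhibitor genes (CPM) against the summed CPM of a marker list in each library, both on log axes, vehicle in grey and VUF11207 in red. Wfdc15b, Wfdc1 and Wfdc17 were high where the epididymis, smooth muscle and macrophage sums were high. The epididymis sum is mostly Crisp1 and Defb42, while Lcn8 and Cst8, defining genes of the caput epididymidis, had 0 counts in every library. The neutrophil sum beside Slpi is mostly Ltf in the 2 libraries where it is highest.

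The membrane-bound Kunitz inhibitors were steady by comparison. Spint1, which restrains matriptase and the activator of hepatocyte growth factor on epithelial cells, was at 103, 96.3 and 114 CPM with vehicle and 94.1, 98.3 and 180 CPM with VUF11207. In 5 of the 6 libraries it lay between 94.1 and 114 CPM, and VUF11207 replicate 3 stood above them. Its log2 fold change was 0.25 ± 0.30 (SE), with a 95% interval from -0.46 to 0.96, and -0.12 without VUF11207 replicate 3. Spint2, which restrains related membrane proteases, was at 907, 1039 and 798 CPM with vehicle and 742, 872 and 1028 CPM with VUF11207. The Spint2 log2 fold change was -0.05 ± 0.31 (SE), with a 95% interval from -0.79 to 0.68, and its sign turned under 6 of 19 alternatives, library totals among them.

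The other genes described were lowly expressed. Wfdc18, a proteinase inhibitor known from mammary gland and chosen after its values were seen, had 8, 0 and 274 counts with vehicle and 333, 35 and 63 with VUF11207, with the high libraries again in different groups, and its log2 fold change of 0.65 ± 1.69 (SE) was -0.88 without VUF11207 replicate 1 and 4.81 without vehicle replicate 3. Those high libraries, vehicle replicate 3 and VUF11207 replicate 1, were also the ones with most skeletal muscle transcripts, whose part was not tested. Wfdc6a and Wfdc6b share sequence, 46.7% of the 50-base words of Wfdc6a, so their values are uncertain, and Wfdc6b also overlaps an exon of Wfdc8. Their combined level was 3.18, 1.27 and 1.20 CPM with vehicle and 1.76, 6.24 and 0.845 CPM with VUF11207, the groups overlapping, and their log2 fold changes were 2.07 ± 1.07 and -0.03 ± 0.86 (SE). Without VUF11207 replicate 2, the highest library for both, Wfdc6a was at 0.84 and Wfdc6b at -1.15. Spink10 ranged from 0.237 to 4.01 CPM, with a log2 fold change of -0.20 ± 1.14 (SE) that turned to 1.16 without vehicle replicate 3 and 0.31 without VUF11207 replicate 3. Wfdc12, which overlaps an antisense gene, was below 1 CPM in every library, with 0 to 27 counts and a log2 fold change of 1.32 ± 1.36 (SE), which was 3.97 without vehicle replicate 3 and 0.55 without VUF11207 replicate 1.

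The 11 genes not described had at most 57 counts in a library, which was Wfdc16 in vehicle replicate 3. They were Spink2, Spink4, Spink12, Spink13, Wfdc5, Wfdc8, Wfdc11, Wfdc13, Wfdc15a, Wfdc16 and Wfdc21. They were below the count minimum and no difference between the groups is reported for them.

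Proteases that such inhibitors bind, and inhibitors of other families, were read from the same edgeR fit. Of 105 genes found on 6 lists, 50 were tested, 27 with positive and 23 with negative fold changes, and 0 passed in edgeR or DESeq2. The unadjusted edgeR p was under 0.05 for 4 of these 50, against 1.43% of all genes. On the list of proteases held by Spint1 and Spint2 with their growth factor axis, 5 of 11 tested genes were positive, with a median log2 fold change of -0.01. Met, the receptor of hepatocyte growth factor, was at 29.8, 30.6 and 24.5 CPM with vehicle and 19.7, 18.3 and 15.6 CPM with VUF11207, without overlap. Met had a log2 fold change of -0.66 ± 0.19 (SE), with an unadjusted edgeR p of 0.0119 and an adjusted p of 0.9999. Tmprss4, a membrane serine protease, was at 0.148, 1.69 and 4.23 CPM with vehicle and 5.38, 6.98 and 7.74 CPM with VUF11207, also without overlap. Its log2 fold change was 1.72 ± 0.96 (SE), with an unadjusted edgeR p of 0.117. Of the other tested genes on the 6 lists, Prss22, Cela1 and Serpini1 were without overlap too. Over all genes tested, 5.57% did not overlap in either direction.

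Proteases of neutrophils and mast cells were nearly absent, with 3 of 12 genes found being tested and none above 10 CPM. Elane, the neutrophil elastase that Slpi blocks, had at most 7 counts in a library. Cela1, a pancreatic-type elastase on the same list, was at 1.89, 0.564 and 2.0 CPM with vehicle and 3.38, 6.68 and 3.82 CPM with VUF11207, without overlap, a log2 fold change of 1.62 ± 0.60 (SE). Of the trypsins, plasminogen activators and related proteases, 6 were tested, 5 of them positive. Plau, the urokinase-type plasminogen activator, was at 18.5, 652 and 650.1 CPM with vehicle and 527, 114 and 53.4 CPM with VUF11207, high in the same 3 libraries as Wfdc15b and Spink8.

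Among serpins, serine protease inhibitors of another fold, 10 of 19 tested genes were positive, with a median log2 fold change of 0.03. Serpine2, an inhibitor of thrombin and urokinase that seminal vesicles secrete, was at 85.2, 2855 and 884 CPM with vehicle and 865, 170 and 101 CPM with VUF11207, a log2 fold change of -1.75 ± 1.29 (SE). Of other Kunitz and WAP genes 2 of 7 were positive, with a median of -0.06. Of the cystatins, inhibitors of cysteine proteases, 2 of 4 were positive, with a median of -0.05. Csta1, a cystatin of the stefin type, was at 3.77, 18.7 and 21.1 CPM with vehicle and 20.5, 87.9 and 103 CPM with VUF11207, a log2 fold change of 2.28 ± 0.80 (SE), with VUF11207 replicate 1 within the vehicle range.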

How the data were processed

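Prostate RNA was isolated with TRIzol and sequenced from VAHTS Universal V6 libraries, per the labels' protocols. Reads were handled with fastp, HISAT2 and HTSeq on build mm10, per the submitters' processing notes. The tool versions, the annotation and any strand setting were not given in the sources used here. The authors deposited raw whole-number counts per gene symbol for 6 libraries, and the 5 single-library files were identical to the table. Total counts per library limit the precision of low genes.

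Counts were scaled by TMM, filtered with filterByExpr and tested in edgeR 4.0.16 (quasi-likelihood, robust, two-sided, all 6 libraries, treatment as the term). Standard errors came from the fold change and F statistic. An exact permutation test of 3 against 3 cannot go below 0.1 and was not run. Alternatives used DESeq2 1.42.0, limma 3.58.1 voom, other scalings and filters, omitted libraries and blocks, in R 4.3.3 and Python 3.11.15.

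The inhibitor genes, the 6 protease and inhibitor lists and the 13 marker lists were chosen with earlier results of these data known. In the marker lists edgeR called 0 of 95 tested genes and DESeq2 1, on the prostate secretory list. On that list 5 of 11 genes had an unadjusted edgeR p under 0.05, against 1.43% of all genes. Values in every library were given for Wfdc3, Wfdc15b, Spink1, Spinkl, Slpi, Spint1 and Spint2, and for inhibitor genes with a mean of at least 5 CPM. They were also given for up to 2 genes per protease or inhibitor list and direction by smallest p. Defining markers at 0 counts were named too. Most other genes are said to be chosen after their values were seen. The same holds for Svs2, Crisp1, Defb42, Lcn5, Ltf and Elane, and for the combined level of Wfdc6a and Wfdc6b. Promoter sequences came from RefSeq, and exon lengths, overlaps and shared 50-base words from GENCODE M21.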

Additional observations from a re-analysis of the deposited data

How the results depend on the processing

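Of the 21 inhibitor genes, 10 kept the sign of their log2 fold change under all alternatives run and 11 did not. DESeq2 called 4 genes in all, and library totals called 3, including 1 inhibitor gene, Wfdc3 (log2 fold change 3.10). Every other alternative called 0 genes in edgeR or limma voom, as did leaving out each library in turn (lowest 0, highest 0), and none called a gene of the protease and inhibitor lists. The all-gene median went from -0.04 (log2) to 0.14 with library totals. The cause of each reversal below was not tested. With limma voom Spink11 was at 2.15 and Wfdc15b at 0.92. With library totals Spint2 was at 0.19 and Wfdc6b at 0.0229, and scaling without the 50 most abundant genes put Wfdc6b at 0.0083. With 1 library left out, the range was -0.89 to 1.16 for Spink10, -2.23 to 3.87 for Spink11, -4.57 to 5.05 for Spinkl, -0.12 to 0.44 for Spint1, -0.18 to 0.0840 for Spint2, -0.95 to 1.28 for Wfdc1, -1.16 to 0.0903 for Wfdc15b, -0.88 to 4.81 for Wfdc18, -0.16 to 1.17 for Wfdc2 and -1.15 to 0.65 for Wfdc6b. Without the 2 libraries richest in seminal vesicle counts, Spink11 was at 3.08, Spinkl at 3.23, Spint2 at 0.18 and Wfdc18 at -1.46. Without the 2 richest in skeletal muscle, Spink10 was at 0.47, Spint2 at 0.0004 and Wfdc6b at 0.0789.

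Whether the replicate numbers pair the libraries is not stated in the sources used here. The correlations below cannot decide it, since deviations cancel within each group of 3 and only replicates 2 and 3 share a number in the labels. Deviations from the group means correlated at -0.374 and 0.0595 for the libraries with the same number in the labels, replicates 2 and 3, and at -0.619 for the pair that shares only a number in its column names, while the unnumbered vehicle library correlated best with VUF11207 replicate 2 (0.731). A replicate block over replicates 2 and 3 called 0 genes and put Spint2 at 0.0693, Wfdc12 at -0.0629 and Wfdc6b at 0.35. A replicate block by column number, added after the data were seen, called 0 genes and put Spink10 at 0.19, Spink11 at 2.56 and Spinkl at 3.40.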
